A study of Drosophila melanogaster with 2 samples.

Results

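Single-gene promoter peaks are the Clk-eGFP peaks of whole male fruit flies that lay at a promoter not shared by a divergent pair of protein-coding genes. Other peaks lay at such a shared promoter or away from any start. A peak was taken as a member when its summit was no more than 500 bp from an annotated transcription start site, unless start sites of 2 or more different protein-coding genes on opposite strands lay within that distance. Of the 2464 reproducible peaks on build dm6, 980 were members, or 39.8%. The rule used only position, not signal. Another 604 peaks lay at divergent promoter pairs, 485 lay 501 to 2000 bp from a start site, and 395 lay over 2000 bp away.

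Chromatin immunoprecipitation followed by sequencing (ChIP-seq) had been run on whole adult male Drosophila melanogaster of a transgenic line that stably carries Clk with GFP at its C-terminus. The single group, Clk-eGFP adult males, held 2 biological replicates of sonicated chromatin, and there was no second condition. The labels' description names an anti-GFP antibody, while their antibody field names Clk. Age is labelled unknown, and the labels give neither the time of day, nor the promoter that drives the transgene, nor whether untagged Clk was also present. Read depth was unknown, since the deposited lists hold regions and signal values but no read counts. The labels call the replicates biological and say no more of how the flies were collected.

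Clock (Clk) is a basic helix-loop-helix transcription factor that works as a pair with Cycle (cyc). The pair binds E-boxes, of which CACGTG is the textbook form, and switches on period (per), timeless (tim), vrille (vri) and Par-domain protein 1 (Pdp1), whose products feed back on the clock. A core promoter is the short stretch around a start site where RNA polymerase II assembles. In flies, regulated genes often use a TATA box or an initiator, while broadly active genes often use elements such as the DNA replication-related element (DRE) and motif 1. The fly genome is compact and many genes share a short divergent promoter, so a peak at a promoter of 1 gene can be tied to that gene's direction of transcription.

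The sequences under the peaks are shown first, each with 50 bp to either side of the summit, read along the strand of the gene, from the RefSeq Release 6 assembly that matches dm6. Capitals mark the named motif. CG14100 and amon are shown because they are among the strongest members. Neither window held the E-box, the DRE or any of the other motifs shown in capitals here.
CG14100 (chr3L:19590580-19590680, minus strand): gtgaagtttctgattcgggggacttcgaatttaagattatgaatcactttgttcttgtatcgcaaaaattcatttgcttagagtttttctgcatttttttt
amon (chr3R:26714336-26714436, minus strand): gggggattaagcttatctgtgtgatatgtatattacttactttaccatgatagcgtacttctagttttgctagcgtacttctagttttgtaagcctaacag

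Windows at 2 clock genes show the contrast between summits with and without the E-box. That of per held CACGTG and that of cry, the blue-light photoreceptor gene, did not.
per (chrX:2685033-2685133, plus strand): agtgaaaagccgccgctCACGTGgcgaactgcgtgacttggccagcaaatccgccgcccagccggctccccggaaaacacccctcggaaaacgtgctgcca
cry (chr3R:19211859-19211959, plus strand): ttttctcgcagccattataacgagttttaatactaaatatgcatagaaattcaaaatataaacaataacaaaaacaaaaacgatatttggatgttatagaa

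Windows of fok and of ps (pasilla), which encodes a splicing factor, are shown as further summits with CACGTG close to the centre. In fok the 6 bases covered the summit itself.
fok (chr2L:20085175-20085275, minus strand): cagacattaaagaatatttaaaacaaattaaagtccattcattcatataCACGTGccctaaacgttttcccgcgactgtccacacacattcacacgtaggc
ps (chr3R:9419353-9419453, plus strand): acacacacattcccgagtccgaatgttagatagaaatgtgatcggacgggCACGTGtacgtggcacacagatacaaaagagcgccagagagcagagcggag

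Windows of Abl, which encodes a tyrosine kinase, and kibra, a gene of the Hippo growth pathway, show the DRE, whose letters are TATCGATA.
Abl (chr3L:16647924-16648024, minus strand): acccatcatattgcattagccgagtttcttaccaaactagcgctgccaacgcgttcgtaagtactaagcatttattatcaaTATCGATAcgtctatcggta
kibra (chr3R:14724308-14724408, minus strand): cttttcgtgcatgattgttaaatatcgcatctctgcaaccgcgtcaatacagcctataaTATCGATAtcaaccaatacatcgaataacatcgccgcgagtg

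Windows of RhoGAP93B and sea, a mitochondrial citrate carrier gene, show CGATAG, the 6-mer with the smallest adjusted p in the screen described further on. In sea it is read on the other strand, as CTATCG.
RhoGAP93B (chr3R:21097834-21097934, minus strand): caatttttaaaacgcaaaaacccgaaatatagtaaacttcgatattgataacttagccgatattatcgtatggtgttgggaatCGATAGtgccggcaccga
sea (chr3R:11562432-11562532, minus strand): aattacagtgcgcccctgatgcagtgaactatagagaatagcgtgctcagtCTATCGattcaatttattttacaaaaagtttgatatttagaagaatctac

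Windows of RpL23A and RpS3A, which encode ribosomal proteins, and of Phs show CAACACTG, the 8-mer in which 2 other called 6-mers overlap. CAGTGTTG is the same 8-mer on the other strand, and the window of Phs held it in both orientations.
RpL23A (chr3L:1668711-1668811, minus strand): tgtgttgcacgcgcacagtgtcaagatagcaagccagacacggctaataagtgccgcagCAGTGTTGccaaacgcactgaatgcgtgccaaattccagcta
RpS3A (chr4:67217-67317, minus strand): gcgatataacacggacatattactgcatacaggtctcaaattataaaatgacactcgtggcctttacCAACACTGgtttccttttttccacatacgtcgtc
Phs (chr3L:15619722-15619822, plus strand): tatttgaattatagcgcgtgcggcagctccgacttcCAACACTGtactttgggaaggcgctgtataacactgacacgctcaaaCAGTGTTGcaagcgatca

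The strongest members lay at genes of unlike roles. Signal here is the authors' signal value of a region, on a scale that depends on the library, so it ranks regions within a list only. CG14100 led with a signal of 1589 in the reproducible list, rank 2 of 2464, with 1001 in replicate 1 and 585 in replicate 2 (chromosome 3L, 19590431 to 19590804). Ugalt, a UDP-galactose transporter gene on chromosome X, followed at rank 3 with 683 in replicate 1 and 353 in replicate 2 (2703702 to 2704058). Both stood far above the member median of 110.

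The mitochondrial ribosomal protein gene mRpL41 was at rank 7 (chromosome 2R, 15217565 to 15217936) and amon, which encodes a prohormone convertase that matures neuropeptides, at rank 11 (chromosome 3R, 26714215 to 26714550). The peak at rank 14 lay 98 bp upstream of eIF6, a gene for a translation factor that also serves ribosome assembly, and 69 bp inside asRNA:CR45928, which starts on the other strand. Sox14, a transcription factor gene of the ecdysone response, was at rank 15, followed by CG1888 at 16, CG31145 at 19 and lncRNA:CR31044 at 22. Syp, which encodes an RNA-binding protein, was at rank 29 and CG1635 at 35. Metabolic enzymes were among the next: Gapdh2 of glycolysis at rank 40, and aay, phosphoserine phosphatase, at 43. Trp1, a gene for a protein translocation factor of the endoplasmic reticulum, stood between them at 42. The other 6 of the 20 strongest were lncRNA:CR44651 (44), asRNA:CR43257 (45), REPTOR, a transcription factor restrained by TOR signalling (46), the Polycomb group gene ph-p (49), Lpin, a lipid phosphatase gene (52), and tim (53). All of these 20 peaks were among the 82 strongest candidates of replicate 1 and the 77 strongest of replicate 2.

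Members were found in both replicates about as often as other reproducible peaks, all of which the authors had selected for agreement between the replicates. Of 980 members, 954 or 97.3% had a candidate summit within 150 bp in each replicate (95% exact binomial interval 96.1 to 98.3), among up to 30000 candidate regions a replicate, and over all 2464 reproducible peaks the share was also 97.3%. When the nearest candidate also had to be among each replicate's 2464 strongest regions, 654 or 66.7% of members remained (63.7 to 69.7), against 67.1% of all reproducible peaks. Intervals here cover counting error over peaks only. The summits of the replicates lay 30 bp apart at the median.

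Signals of replicate 1 exceeded those of replicate 2 by a median factor of 1.79. Over the 954 members the log2 signals correlated at Pearson r = 0.760 and Spearman rho = 0.656, given as a description, since peaks of 1 pair of libraries share library and depth and are not replicates. After that factor was taken out, 83 members or 8.70% differed over 2-fold between replicates. At Ptpmeg, which encodes a tyrosine phosphatase, the signal was 84.1 in replicate 1, rank 907, and 9.51 in replicate 2, rank 23521. At Stat92E, the transcription factor gene of the JAK-STAT pathway, it was 32.8 in replicate 1, rank 4557, and 58.1 in replicate 2, rank 626. Peaks as uneven as these were supported mainly by 1 library.

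**Figure D1:**
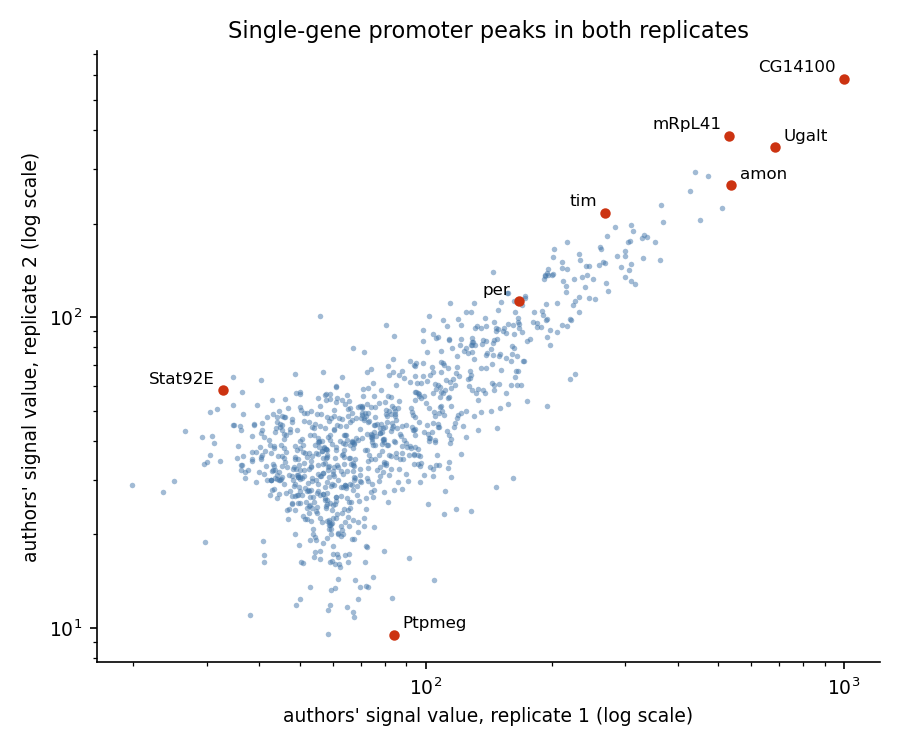
Authors' signal value of each single-gene promoter peak in replicate 1 (horizontal, log scale) and replicate 2 (vertical, log scale), for the 954 members with a candidate summit in both; red points are named. CG14100, Ugalt, mRpL41 and amon stand at the upper right, tim and per lie along the main cloud, and Ptpmeg and Stat92E lie far to either side of it.

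Member summits lay mostly upstream of the start site. The rule used the size of the distance but not its direction. Of 980 summits, 772 or 78.8% were upstream of the nearest start site (76.1 to 81.3), with a median position of -114.5 bp, where negative values are upstream. The share was 78.4% with replicate 1's own summits and 78.3% with those of replicate 2, at medians of -114 and -116 bp. Within 250 bp upstream lay 583 summits, or 59.5%.

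Stronger peaks lay farther upstream. In 5 classes of 196 members from the strongest to the weakest, the median positions were -155, -142, -94, -83.5 and -75.5 bp. The upstream share was 86.7% in the strongest class (81.2 to 91.2) and 71.9% in the weakest (65.1 to 78.1). With replicate 1's own summits and ranks they were -153, -126, -111, -75 and -66.5 bp, and with those of replicate 2 -153.5, -141, -125, -86 and -87.5 bp. The weaker classes thus lay nearer to the start in both, except that the last pair of replicate 2 differed little. Region width also moved with strength: 795 members were 420 bp wide with the summit at the centre (median rank 1430), and the other 185 had their own widths (median rank 191). The part of the widths in the shift of position was not tested.

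**Figure D2:**
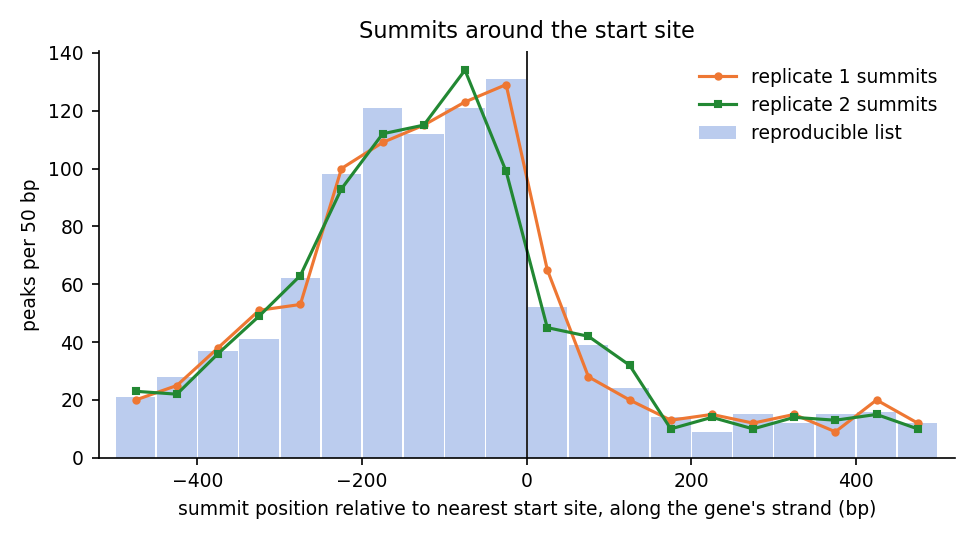
Number of member summits per 50 bp (vertical) by position relative to the nearest start site along the gene's strand (horizontal, bp, negative is upstream); bars are the reproducible list and lines the replicates' own summits. The counts are highest over the 250 bp upstream of the start in the list and in both replicates.

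The nearest start belonged to a protein-coding gene in 890 members, a non-coding RNA gene in 84, a tRNA gene in 3, a pseudogene in 2 and an snRNA gene in 1. Summits were upstream in 80.6% of members nearest to a protein-coding start (77.8 to 83.1) and in 61.9% of those nearest to a non-coding RNA start (50.7 to 72.3). Beside the leading asRNA:CR45928, the strongest of the other types were snRNA:7SKa, a gene for the small RNA that holds back the elongation factor P-TEFb, at rank 679, the pseudogene CR42875 at 723 and tRNA:Leu-TAA-2-1 at 1388. In 64 members no protein-coding start lay within 500 bp, and in 20 there were starts of 2 protein-coding genes of the same strand. Starts of 2 or more genes of any type lay within 500 bp in 94 members. With opposite-strand pairs of any gene type left out, 928 members remained.

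Many members were at genes with alternative promoters. Of the 890 members nearest to a protein-coding start, 567 were at genes with 2 or more annotated starts, and in 286 of these the start was over 500 bp inside the most upstream one. In 120 of the 567 it was over 5000 bp inside. The same shares over all annotated starts were not computed, so these counts show no preference for inner starts. By annotation 409 summits were outside genes, 335 in introns, 159 in 5′ UTRs, 48 in noncoding exons, 18 in 3′ UTRs and 11 in coding exons. The body of another protein-coding gene held 11.7% of the summits.

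A few genes held several members. Of 834 protein-coding genes with a member within 500 bp of a start, 92 had at least 2 and 7 at least 3. Rtnl1, which encodes a reticulon that shapes the endoplasmic reticulum, had 5 on chromosome 2L, with ranks 121, 231, 241, 1087 and 2088. Syp had 4, and RapGAP1, Ptpmeg2, drn, CG46385 and fray had 3 each. Such counts include closely spaced summits: 88 members lay within 250 bp of another member, at a median spacing of 202 bp. The peaks at Rtnl1 were at 5 different starts, while 2 of the 4 at Syp shared a start 200 bp apart.

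The clock genes spanned the range of strength. The summit of tim was 150 bp upstream of the start, with a signal of 268 in replicate 1 and 217 in replicate 2 (chromosome 2L, 3507188 to 3507573). The per summit was 497 bp upstream, just inside the limit, with 167 in replicate 1 and 113 in replicate 2 (chromosome X, 2684896 to 2685228). At vri the stronger of 2 members was 219 bp upstream of a start inside the gene, with 185 in replicate 1 and 92.9 in replicate 2 (chromosome 2L, 5305333 to 5305571). The weaker, at another vri start, had 26.7 in replicate 1 and 43.2 in replicate 2, so that here replicate 2 was the higher.

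The Clk promoter itself had a peak at rank 1456, 107 bp upstream of a start, with 63.8 in replicate 1 and 33.7 in replicate 2 (chromosome 3L, 7775500 to 7775919). Transgene DNA with the sequence of the gene would map to the same place, so extra copies and binding cannot be told apart there. Pdp1 had a member at rank 1921, with 40.7 in replicate 1 and 45.5 in replicate 2. Neither cwo nor cyc, the other 2 genes of the loop, had one.

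Genes were counted against a background. A protein-coding gene was called eligible when it had a start with no opposite-strand start of another protein-coding gene within 500 bp, and 828 of 10738 eligible genes, or 7.71%, had a member peak (7.21 to 8.23). The share was 4.20% of genes with 1 annotated start, 13.3% of those with 2 or 3 and 34.0% of those with 4 or more. A gene with more starts offers more places for a peak, so the count among genes with 1 start is given with each list. The lists were chosen with earlier results in view and no test was run on them. By chromosome the share was 6.91% on X, 7.39% on 2L, 7.77% on 2R, 8.28% on 3L and 8.04% on 3R.

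Of the 7 genes of the core clock loop, 5 had a member, or 71.4%, against the 7.71% of all eligible genes. The 5 include Clk, where extra transgene copies and binding cannot be told apart. Among 13 eligible clock regulators 5 had one, or 38.5%. They were cry at rank 54, sgg, the kinase of Timeless, at 572, the phosphatase 2A subunit genes tws at 772 and wdb at 1028, and the ubiquitin ligase gene ctrip at 2325. The cry signal was 307 in replicate 1 and 176 in replicate 2 (chromosome 3R, 19211757 to 19212108), above that of per in both. Without replicate 2 the loop count was 3 of 7, and it was also 3 of 7 with a limit of 250 bp or with the stronger 1232 peaks. The median number of starts was 2 in the loop and 3 among the regulators, and of the genes with 1 start 1 of 3 in the loop and 1 of 2 regulators had a member.

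Genes of protein synthesis had members often. Of 59 eligible cytoplasmic ribosomal protein genes, 26 had one, or 44.1% (31.2 to 57.6), led by RpL23A at rank 141, RpL30 at 296, RpS3A at 397 and RpS4 at 582. The RpL23A signal was 206 in replicate 1 and 111 in replicate 2, with the summit 107 bp upstream of the start (chromosome 3L, 1668638 to 1668851). The weakest member of the list, RpS28b, had 44.5 in replicate 1 and 30.0 in replicate 2. Ribosomal protein genes thus ran from well above the member medians to near the end of the list. Of the 29 with a single annotated start, 10 had a member, or 34.5% (17.9 to 54.3), against 4.20% of all single-start genes. Translation factors had 10 of 24, or 41.7%, with eIF6 at rank 14, eEF1gamma at 332, pAbp, the poly(A)-binding protein gene, at 340 and Thor, an inhibitor of cap-dependent translation, at 527. Of the 7 translation factors with 1 start, 1 had a member, or 14.3% (0.361 to 57.9). Among mitochondrial ribosomal proteins mRpL41 alone had one, 1 of 20 or 5%. Of those 20 genes 19 have 1 start, where the share was 5.26%, near the 4.20% of all single-start genes.

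Insulin, TOR and energy sensing genes had 7 of 20, or 35.0%, led by REPTOR at rank 46, Pi3K21B at 145, Thor and SNF4Agamma at 638. The REPTOR signal was 314 in replicate 1 and 189 in replicate 2 (chromosome 3R, 24572501 to 24572810). Heat shock and chaperone genes had 6 of 18, or 33.3%, led by Hsp83 at 190, Hsp27 at 197, DnaJ-1 at 295 and Hsp22 at 1224. Hsp83, the fly's Hsp90, had 221 in replicate 1 and 63.4 in replicate 2 (chromosome 3L, 3192985 to 3193209), a wider gap between replicates than at most members. Of the 8 single-start genes of this list 3 had a member. Promoter, insulator and chromatin factor genes had 10 of 32, or 31.3%, led by ph-p at 49, Trl, which encodes GAGA factor, at 346, ph-d at 493 and BEAF-32, an insulator protein gene, at 786. None of the single-start genes of the insulin or chromatin lists had a member, out of 7 and 14. Cytoskeleton genes had 5 of 20, led by shot at 265, sqh at 630, Act5C at 1634 and Moe at 1753, with 1 of 8 single-start genes. Secretory pathway genes had 5 of 20, led by Ugalt, Rab5 at 314, Clc at 1323 and Sar1 at 1946, with 1 of 11 single-start genes. Signalling genes had 4 of 20, namely hpo (255), aop (1690), Stat92E (1884) and tkv (2052), with 1 of 7 single-start genes. The tkv summit was at -49 bp from a tkv start and at -30 bp from the nearer start of the pseudogene CR14033. General transcription genes had 4 of 24, namely Taf4 (430), TfIIA-S (623), CycT (2196) and MED4 (2339), with 2 of 16 single-start genes, and the count was 2 without replicate 1. The proteasome had 1 of 26, Rpn11 at rank 1897, with 1 of 20 single-start genes, and 0 of 26 without replicate 1.

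Lists that mark cell types of a whole male fly had shares near or below the 7.71% of all eligible genes, or too few genes to tell. Testis genes had 0 of 26, which allows a share of up to 11.5%, accessory gland genes 0 of 14 (up to 21.4%), digestive enzymes 0 of 13 (up to 23.1%) and neuropeptides 0 of 22 (up to 13.6%), and since each of these limits is above the 7.71% of all eligible genes, a lower rate could not be seen with lists of this size. Muscle genes had 2 of 22, or 9.09%, Mef2 at rank 1316 and Zasp52 at 2073, and the count was 1 without replicate 2. Photoreceptor genes had 2 of 21, or 9.52%, rdgC at rank 234 and rdgB at 1586. Neuron genes had 1 of 20, or 5%, elav at 416. No gene with a single start had a member in any of these lists, out of 18 testis, 14 accessory gland, 12 digestive, 15 neuropeptide, 8 muscle, 13 photoreceptor and 6 neuron genes. How strongly each gene was transcribed in these flies was not measured in the files used.

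**Figure D3:**
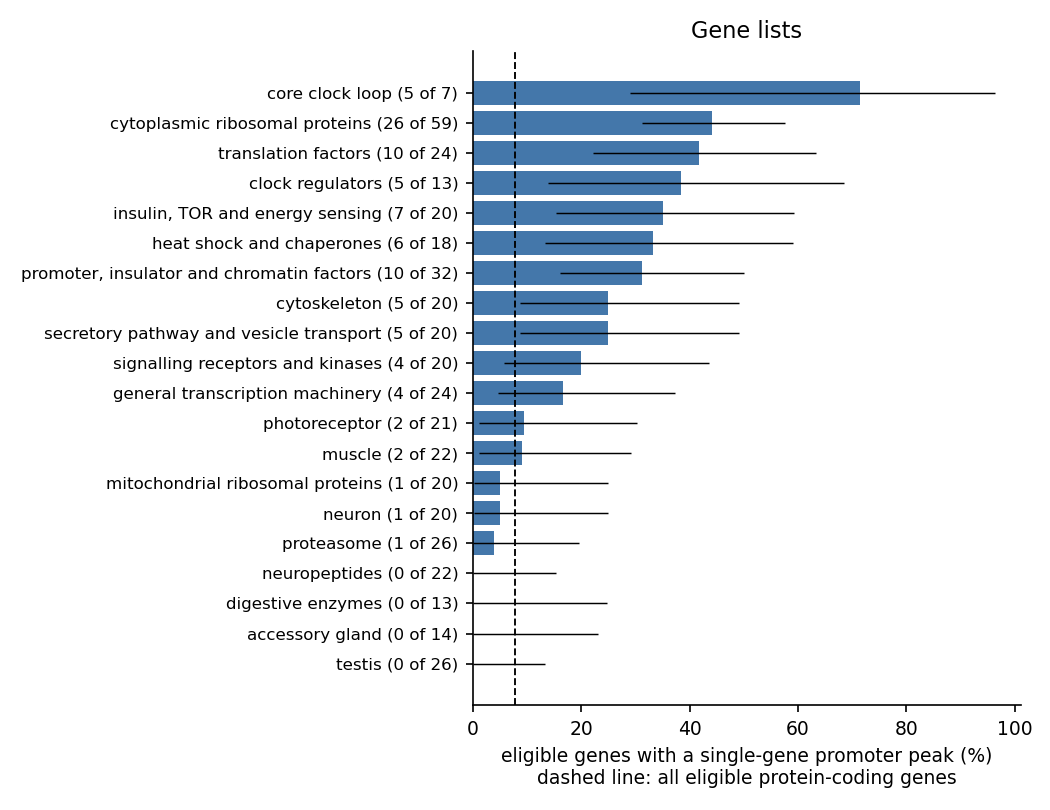
Share of eligible genes with a single-gene promoter peak (horizontal, percent) in each of 20 gene lists, with exact binomial 95% intervals and the counts beside the names; the dashed line marks the 7.71% of all eligible genes. The core clock loop, cytoplasmic ribosomal proteins and translation factors stand farthest above the line, and 4 lists have no gene with a peak.

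Base composition differed on the sides of the summit. The mean share of G and C was 40.03% in member summit windows (SD 10.9, n = 980 windows), with 38.4% in equal windows centred 400 bp upstream and 45.6% in those 400 bp downstream. Start sites without a peak, read at the same median offset, had 39.8% (n = 13582 windows). The strongest class of members had 36.2% and the weakest 42.6%, and the classes between had 38.8, 40.6 and 41.9% in order of strength. By replicate 1's own summits and ranks the strongest class had 36.7% and the weakest 41.8%. By those of replicate 2 the strongest had 36.9% and the weakest 42.5%.

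**Figure D4:**
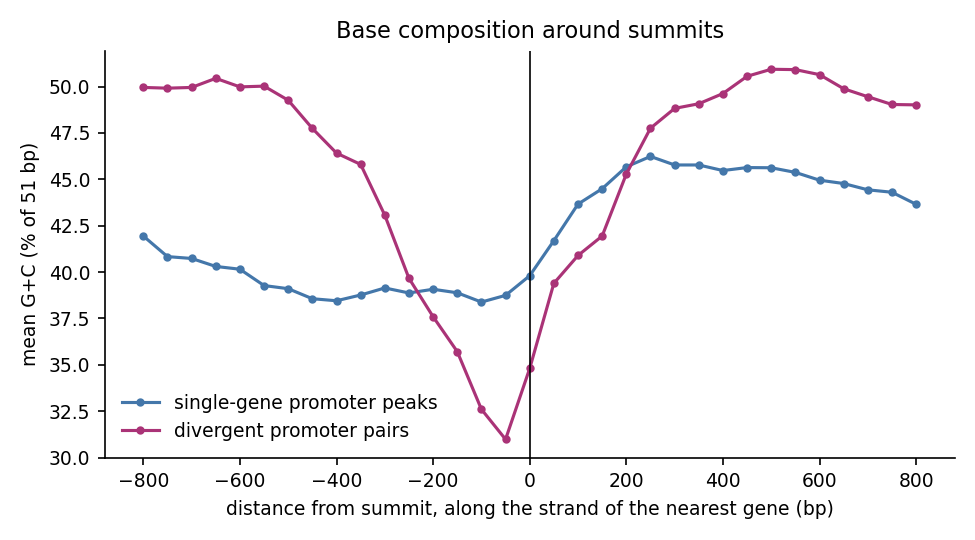
Mean share of G and C in 51 bp (vertical, percent) by distance from the summit along the strand of the nearest gene (horizontal, bp), for single-gene promoter peaks and divergent promoter pairs. Around member summits the share climbs from an upstream plateau to a downstream one, while at divergent pairs it is lowest just upstream of the summit, with 31.0% at -50 bp and 34.8% at the summit, and higher farther out on both sides.

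Each of the 2080 6-mers, counted with its reverse complement, was compared between summit windows and both flanks. Those higher than in both flanks numbered 3, or 0.144% of the 6-mers, and 1, or 0.0481%, was lower than in both (exact two-sided McNemar test with Benjamini-Hochberg adjustment over all 6-mers, threshold 0.05). CGATAG was in 82 summit windows, 29 upstream and 17 downstream windows of 980 (exact McNemar test, adjusted p = 0.00102). ACACTG was in 100, with 36 upstream and 44 downstream (exact test, adjusted p = 0.00259), and CAACAC in 114, with 40 upstream and 57 downstream (exact test, adjusted p = 0.00280). CAAGGA was lower, in 16 summit windows against 52 upstream and 54 downstream (exact test, adjusted p = 0.00732). All of these 6-mers hold 3 G or C bases. The p-values set windows of 1 genome beside each other and do not measure spread between replicates. Since the rule placed member summits near a start, the comparison with flanks does not separate letters of peaks from letters common near starts. Which of these underlies the calls was not tested.

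The calls were made with the summits of replicate 1 and mostly not with those of replicate 2. With replicate 1's summits of the members the exact test gave adjusted p = 0.00135 for CGATAG, 0.00595 for ACACTG, 0.00884 for CAACAC and 0.0403 for CAAGGA. With replicate 2's summits, of the 4 only ACACTG passed (exact test, adjusted p = 0.0343), and the values were 0.180 for CGATAG, 0.149 for CAACAC and 0.175 for CAAGGA. At RhoGAP93B, rank 209, and sea, rank 278, the printed 6-mer was centred at -21.5 and -182.5 bp from the start, in the same order. CGATAG was still in 63 of replicate 2's 957 summit windows, with 29 upstream and 16 downstream. None of the 4 calls was made in the stronger 490 of the members or in windows of 25 bp each side.

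ACACTG and CAACAC overlap in the 8-mer CAACACTG, which was looked at after these calls were known and so has no test of its own. It was in 41 member windows, or 4.18% (3.02 to 5.63), and in 4 windows or 0.408% of each flank. Start sites without a peak had it in 0.420% (0.318 to 0.543), but windows there were all centred at -114 bp from the start. Between -100 and 50 of the start, the 8-mer was at 5.49% of member starts and 1.27% of starts without a peak. Its share was 3.99% at the summits of replicate 1 and 3.66% at those of replicate 2. Of its 44 sites, 22 lay within 100 bp upstream of the start, with a median position of -28.5 bp. Members with the 8-mer had a median signal of 109.9, against 110.3 in those without it. Besides RpL23A, RpS3A and Phs, the window of Neb-cGP also held it.

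The DRE was in 24 member windows, or 2.45% (1.57 to 3.62), with 0.918% upstream, 0.102% downstream and 1.08% at start sites without a peak. Of its 24 sites, 19 were within 100 bp upstream of the start, while windows at start sites without a peak were centred at -114 bp. Between -100 and -1 of the start, the DRE was at 5.26% of member starts and 3.33% of starts without a peak. The windows of Abl at rank 728 and kibra at rank 1106 each held 1. CGATAG shares letters with it, and 15 of the 82 windows with CGATAG also held the whole DRE. Motif 1, GGTCACAC, was in 12 windows or 1.22%, with 0.408% upstream and 0.102% downstream. Start sites without a peak had it in 0.604%, with an interval that overlaps that of members. Between -100 and 10 of the start, motif 1 was at 2.22% of member starts and 2.28% of starts without a peak. The GAGA element, GAGAGAG, was in 4.29% of member windows (3.11 to 5.75), 3.67% upstream, 3.57% downstream and 4.67% at start sites without a peak, with intervals that overlap.

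CACGTG was in 14 member windows, or 1.43% (0.783 to 2.38), with 0.408% upstream, 0.816% downstream and 1.06% at start sites without a peak (0.895 to 1.25). It was not among the 6-mers called. The 14 windows were those of fok at rank 110, per at 188, CG10365 at 479, the ribosomal protein genes RpL11 at 711 and RpL24 at 880, ps at 1088, lncRNA:CR43650 at 1281, Tsp42Eg at 1305, jvl at 1749, the Notch co-activator gene mam at 1993, Dysb at 2170, CG42673 at 2195, lncRNA:CR45748 at 2227 and kis, a chromatin remodeller gene, at 2229. Of the clock loop and regulator lists only per was among them in this window. Members with CACGTG had a median signal of 106, against 110.3 without. No member in the 20 strongest held it. The variant E-box CACGTT was in 46 member windows, or 4.69% (3.46 to 6.21), with 2.04% upstream, 3.88% downstream and 2.70% at start sites without a peak (2.44 to 2.99). Its share was 3.99% at the summits of replicate 1 and 3.45% at those of replicate 2. Both per and the stronger vri member at rank 221 held it, and it was not among the 6-mers called.

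**Figure D5:**
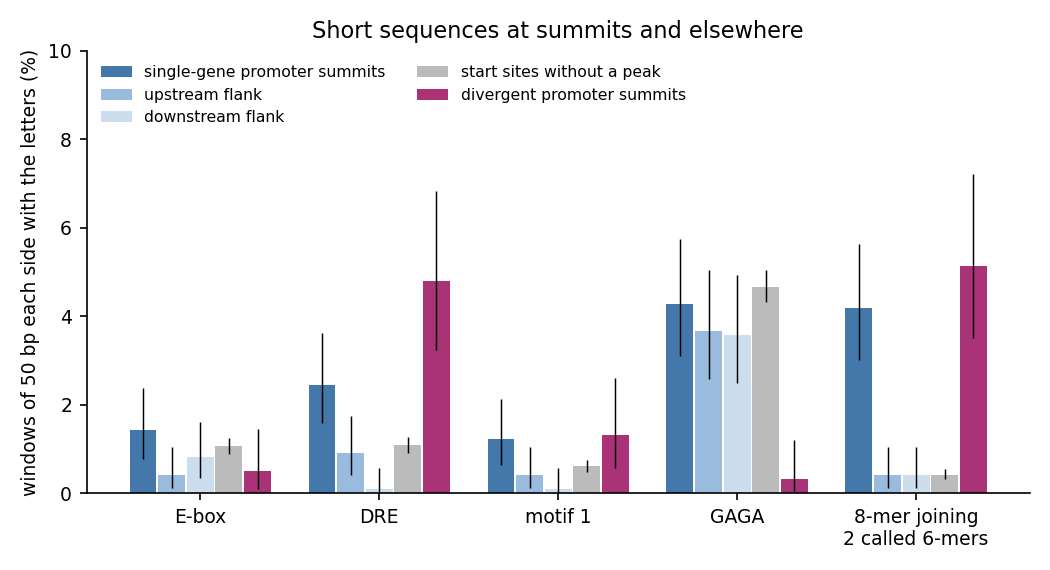
Share of windows of 50 bp to each side that hold the E-box, the DRE, motif 1, the GAGA element or the 8-mer that joins called 6-mers (vertical, percent, with exact binomial 95% intervals), at single-gene promoter summits, in their flanks, at start sites without a peak and at divergent promoter summits. Each of these sequences has a higher share at member summits than in either flank, and the intervals are apart from those of both flanks for the 8-mer only.

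Core promoter letters were also read at fixed distances from the start itself. TATAAA on the gene's strand between -45 and -20 was at 24 of 856 starts nearest to a member, or 2.80% (1.80 to 4.14), against 8.46% of 13582 single-gene starts without a peak (7.997 to 8.94). The initiator letters TCAGT between -10 and 10 were at 16.8% of member starts (14.4 to 19.5) and 15.3% of starts without a peak. CAACACTG between -100 and 50 was at 5.49% of member starts (4.06 to 7.24) and 1.27% of starts without a peak. TATCGATA between -100 and -1 was at 5.26% of member starts and 3.33% of starts without a peak. CGATAG in the same stretch was at 10.6% of member starts and 7.43% of starts without a peak. Motif 1 between -100 and 10 was at 2.22% of member starts and 2.28% of starts without a peak. These are descriptions, since starts of 1 gene can share sequence and were counted singly.

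Set beside the other peak classes, members stood between divergent pairs and more distant peaks in signal. Their median was 110, against 124 at divergent pairs, 102 at peaks 501 to 2000 bp from a start and 99.9 at those farther away. In replicate 1 the median was 71.4 at members, 75.9 at divergent pairs, 68.0 at 501 to 2000 bp and 63.8 beyond. In replicate 2 it was 41.6 at members, 46.7 at divergent pairs, 39.2 at 501 to 2000 bp and 39.3 beyond. The nearest candidate was among the strongest regions of both replicates in 66.7% of members and 74.7% of divergent peaks (71.0 to 78.1).

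The classes also differed in letters and composition. G and C made up 40.03% of member windows and 34.9% of divergent windows. CAACACTG was in 4.18% of member windows and 5.13% of divergent windows, but in 0.825% of those 501 to 2000 bp from a start and 0.253% of those farther away. TATCGATA was in 2.45% of member windows and 4.80% of divergent windows. CGATAG was in 8.37% of member windows and 14.6% of divergent windows. GAGAGAG went the other way, at 4.29% of member windows and 0.331% of divergent windows (0.0401 to 1.19). CACGTG was in 1.43% of member windows (0.783 to 2.38) and 0.497% of divergent windows (0.102 to 1.44). It was in 1.03% of windows 501 to 2000 bp from a start and 2.785% of those farther away (1.40 to 4.93), and these intervals all overlap that of members. The initiator letters were at 16.8% of member starts and 5.02% of starts at divergent peaks (3.41 to 7.08). By the same reading at starts, CAACACTG was at 5.49% of member starts and 11.4% of starts at divergent peaks (8.94 to 14.2). Motif 1 was at 2.22% and 5.69% (3.97 to 7.86), and TATAAA at 2.80% and 2.01% (1.04 to 3.48), in the same order. With 1 group of 2 replicates these class differences have no test over samples.

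Near the limit of the rule, 33 members in the last 50 bp before it had a median signal of 115.5, and 30 peaks in the first 50 bp beyond it had one of 109. Members were 43.4% of all reproducible peaks on X, 43.3% on 2R, 37.8% on 2L, 38.1% on 3L, 37.9% on 3R and 4 of 4 on chromosome 4. The dm6 peaks ran past the end of no chromosome.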

How the data were processed

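ChIP-seq regions of 2 biological replicates of Clk-eGFP adult males were analysed. Per the file headers of the notes deposited with them, the authors aligned reads to dm6, called candidate regions in each replicate against a control alignment and made the reproducible list by irreproducible discovery rate. The aligner, the caller and the threshold applied were not given in the sources used here. The score used is the deposited signal value, on the scale of the authors' caller. The other deposited column used is the summit offset. Depth and its limits on precision are unknown.

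Start sites were transcript 5′ ends of Ensembl release 115 (BDGP6.54), without transposable elements, and sequence came from RefSeq Release 6. Windows were 50 bp each side of the summit, with flanks centred 400 bp away. Start sites without a peak had no summit within 500 bp, and their windows were centred at -114 bp, near the members' median position. Motifs were searched on both strands unless stated. Intervals are exact binomial (Clopper-Pearson) at 95%, for counting error only, and the limit of a count of 0 is 3 counts. The 6-mer procedure was tested on simulated windows with the same base composition at summits and flanks. That test does not cover the difference in G and C between real summit and downstream windows. Its letters were drawn independently, so it also does not cover repeats, letters common near starts or closely spaced members.

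Members, lists and motifs were chosen with earlier results of these data known. Names Hop, Tor, Dl and Prot-alpha matched no gene. Genes named were those at the 20 strongest members found in both replicates, up to 4 leading genes of each list, genes with 3 or more members, the strongest member of each non-coding type, clock loop genes, genes whose window held CACGTG and strong members with each motif. Printed windows held no annotated exon. Ptpmeg and Stat92E were named after their values were seen. Alternatives changed distance, start types, pair rule, peak number, replicates, windows and flanks. Work was done in Python 3.11.15 with pandas 2.3.3, SciPy 1.17.1, NumPy 2.4.6 and, for figures, matplotlib 3.10.9.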

Additional observations from a re-analysis of the deposited data

How the results depend on the processing

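The count of members was 980 and lay between 916 and 1101 under every alternative of start sites, distance and pairs run, and at 953 and 996 with 1 replicate left out. It was 503 with the stronger 1232 of the peaks, by construction. The upstream share, 78.8%, was 81.4% within 250 bp, 71.5% within 1000 bp and 84.3% in the stronger 1232 peaks, and with 1 replicate left out it was 77.3 to 78.1%. The share of eligible genes was 6.85% within 250 bp and 4.13% with the stronger 1232 peaks, and 7.41 to 7.86% with 1 replicate left out. Replicate support was 82.1% within 75 bp, 99.6% within 300 bp and 68.5% with a strong candidate anywhere within 150 bp. Counting ends of transposable elements as starts, added after seeing the data, gave 984 members.

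The 6-mer counts depended most on the settings. In place of 3 higher and 1 lower there were 0 and 0 with 25 bp windows, 5 and 2 with 100 bp windows, 0 and 0 in the stronger 490 members, 0 lower with flanks 300 bp away and 2 lower with flanks 600 bp away. CAAGGA was lost at both flank distances (exact McNemar test, adjusted p = 0.391 at 300 bp and 0.0902 at 600 bp), so the 2 lower were other 6-mers. CAACAC was lost with flanks 600 bp away (exact test, adjusted p = 0.256) and in 100 bp windows (0.108). With 1 replicate left out there were 1 to 3 higher and 0 lower. Against 1 flank alone, added after seeing the data, there were 7 higher for the upstream flank, and 139 higher and 118 lower for the downstream flank, which is richer in G and C. The CACGTG share was 3.37% in 100 bp windows, by construction, and 1.78 to 1.81% with 1 replicate left out. The number of lists above the share of all eligible genes was 13 and stayed between 11 and 14. The 13 include muscle and photoreceptor genes, whose shares of 9.09% and 9.52% were near that of all eligible genes. Because the lists were chosen with earlier results in view, the steady count is a description and no support. For the 16 lists with any member, 56 of 80 recomputed counts were within 1.5-fold of the value given; those that moved were in 12 lists, and not in the clock regulator, translation factor, heat shock or insulin lists. Cytoplasmic ribosomal proteins had 17 genes within 1000 bp, where more starts count as divergent, and 15 with the stronger 1232 peaks. The ratio of member to divergent medians was 0.891, and 0.892 to 0.940 with 1 replicate left out, added after seeing the data. Unknown read depth limits all signal values.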

Other observations

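Glycolysis was looked at after Gapdh2 and Eno were seen near the top of the list, so its count is a description only. Of 11 eligible genes of the pathway 6 had a single-gene promoter peak, against 7.71% of all eligible genes, and the median number of annotated starts was 2. Among all eligible genes the share was 13.3% with 2 or 3 starts and 34.0% with 4 or more. Gapdh2, glyceraldehyde 3-phosphate dehydrogenase, had a signal of 352 in replicate 1 and 175 in replicate 2, with the summit 182 bp upstream of the start. Eno, enolase, had 304 in replicate 1 and 175 in replicate 2. Both peaks were far above the member medians of 71.4 in replicate 1 and 41.6 in replicate 2. Hex-A, hexokinase, was at rank 258, Pgk, phosphoglycerate kinase, at 272, Ald1, aldolase, at 1194 and Ldh, lactate dehydrogenase, at 1221. The Ald1 summit was 404 bp downstream of an Ald1 start and 106 bp downstream of the nearer start of asRNA:CR44321. The eligible genes without a member were Hex-C, Pfk, Pgi, PyK and Tpi. Only 1 of the 11 had a single annotated start, and it had no peak.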
